A study of Rattus norvegicus with 9 samples.

Results

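The genes described here code the collagens, the other proteins of the extracellular matrix and the tendon proteins of rat skeletal muscle. They were chosen by name, as a list of 60 genes covering fibrillar and basement membrane collagens, proteoglycans, collagen folding and crosslinking, matrix proteases and their inhibitors, and tendon. Of these, 48 had a probe set that the platform annotation assigned to exactly 1 symbol, out of 14506 genes with such a probe set and 29215 probe sets in all. Col6a1, Col6a2, Col6a3, Col4a2, Col15a1, Col18a1, Lama2, Lamb1, Nid1, Hspg2, Tnc and Thbs4 had none and were not analysed here, so collagen VI and most of the basement membrane are missing from the account. Each of the 48 measured members had 1 probe set.

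RNA came from the whole tibialis anterior muscle (TIB), a fast-twitch muscle of the lower leg, of 9 male Sprague Dawley rats, a common outbred laboratory strain. The rats were young adults with free access to water, and each was profiled on 1 Affymetrix Rat Gene 1.0 ST array, on which many short probes per gene are summarized into a probe set. The 3 fed rats (Fed) were not deprived of food, the 3 rats called P2 were in phase 2 of a prolonged fast, in which lipids are the main fuel and body proteins are spared, and the 3 rats called P3 were in phase 3, in which the breakdown of body proteins increases. No genotype or drug separates the groups, and fasting time differs along with the phase, so phase and duration of the fast cannot be told apart. Each array carries the name of its group and a replicate number (Fed 1, P2 1 and so on), and the numbers do not pair rats across groups.

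The deposited values are log2 intensities, on which a difference of 1 is a doubling. Levels are given on this scale for each array and log2 fold changes as the estimate ± its standard error (SE), and every group had n = 3 rats. The 3 pairs of groups were compared by limma, with p-values corrected over all 29215 probe sets after Benjamini and Hochberg, and a gene is said to be called where this adjusted p was under 0.05. The 2 comparisons with Fed share the 3 fed rats, so their values stand side by side and are not independent. A probe set's level depends on its probes, so levels are not compared between genes. The tissue label was checked by genes of skeletal muscle fibres, fast ones among them. Over the 9 measured, which include Acta1, Myh4 and Ckm, the mean log2 intensity was 13.46 to 13.47 in fed rats. It was 13.30 to 13.34 in P2 and 13.06 to 13.13 in P3. Such values show muscle RNA on every array and do not tell a fast from a slow muscle. In RNA from whole muscle, fewer cells of a type and less RNA per cell cannot be told apart.

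Muscle fibres are each wrapped in a basement membrane of laminins and type IV collagen, and bundles of fibres are held by layers of connective tissue whose strength comes from fibrils of type I and type III collagen. Most of these proteins are made by fibroblasts and related mesenchymal cells between the fibres, and at the ends of the muscle by tendon cells. Procollagen chains are hydroxylated and folded with the help of a chaperone in the endoplasmic reticulum, trimmed and assembled into fibrils outside the cell, and crosslinked by lysyl oxidases, while small leucine-rich proteoglycans bind the fibrils and set their diameter and spacing.

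Most measured matrix genes were lower in P3 than in fed rats, and a smaller number already in P2, while a few, led by Omd and Timp3, were higher in both phases. In P3 versus Fed, limma called 34 of the 48 members lower, beside 13.4% of all probe sets, and 4 higher, beside 15.8%. In P2 versus Fed, 13 were lower, beside 4.15% of all probe sets, and 6 higher, beside 5.13%. In P3 versus P2, 27 were lower, beside 7.52%, and 0 higher, beside 8.50%. At an unadjusted p under 0.05, limma had 2 members higher in P3 than in P2, Omd and Lox. The analysis of variance and Tukey test of the study's methods, at a stricter p under 0.001, called 0. With an adjusted analysis of variance and a Tukey test at 0.05 the count was also 0.

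The median log2 fold change of the 48 members was -0.35 in P2 versus Fed, beside 0.011 over all probe sets. It was -0.998 in P3 versus Fed, beside 0.00035, and -0.58 in P3 versus P2, beside -0.0094. All 3 P3 rats lay below all 3 fed rats for 35 members, beside 20.1% of all probe sets. The P2 rats lay wholly below the fed rats for 22 members, beside 10.9%, and the P3 rats wholly below the P2 rats for 29, beside 13.6%. In P3 versus Fed, 24 members were called lower by at least 1 on the log2 scale, beside 3.94% of all probe sets, and 12 of them by at least 2. The count of calls lower by at least 1 was 14 in P3 versus P2, beside 1.58%, and 6 in P2 versus Fed, beside 0.767%. Calls higher by at least 1 numbered 4 in P2 versus Fed, beside 0.818%, and 2 in P3 versus Fed, beside 4.83%. The list was drawn up with earlier results of these data known, so these counts describe its members and are no test of the list.

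Seen against fed rats, 13 members were lower in both phases: Col3a1, Col5a1, Col5a3, Col11a1, Col14a1, Col4a1, Fn1, Fbn1, Bgn, Loxl1, P4ha1, Serpinh1 and Scx. Another 20 were lower in P3 and had no call in P2. Fbln1, Omd and Timp3 were higher in both phases, Comp and Prelp were higher in P2 with no call in P3, Chad was higher in P2 and lower in P3, and Lox was higher in P3 with no call in P2. No call against fed rats was made for Col12a1, Fbln2, Dcn, Plod2, P4ha2, Mmp2, Mmp14 and Pdgfra. The share of all probe sets with each of these joint patterns was not counted, so the patterns only sort the members. By an analysis of variance with an adjusted p under 0.05 followed by a Tukey test at 0.05, 23 members rather than 34 were lower in P3 versus Fed, the calls of Col5a2, Col16a1, Col8a1, Lamc1, Eln, Fbln5, Lum, Ogn, Chad, Timp1 and Timp2 being lost, and so was the higher call of Lox.

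**Figure D1:**
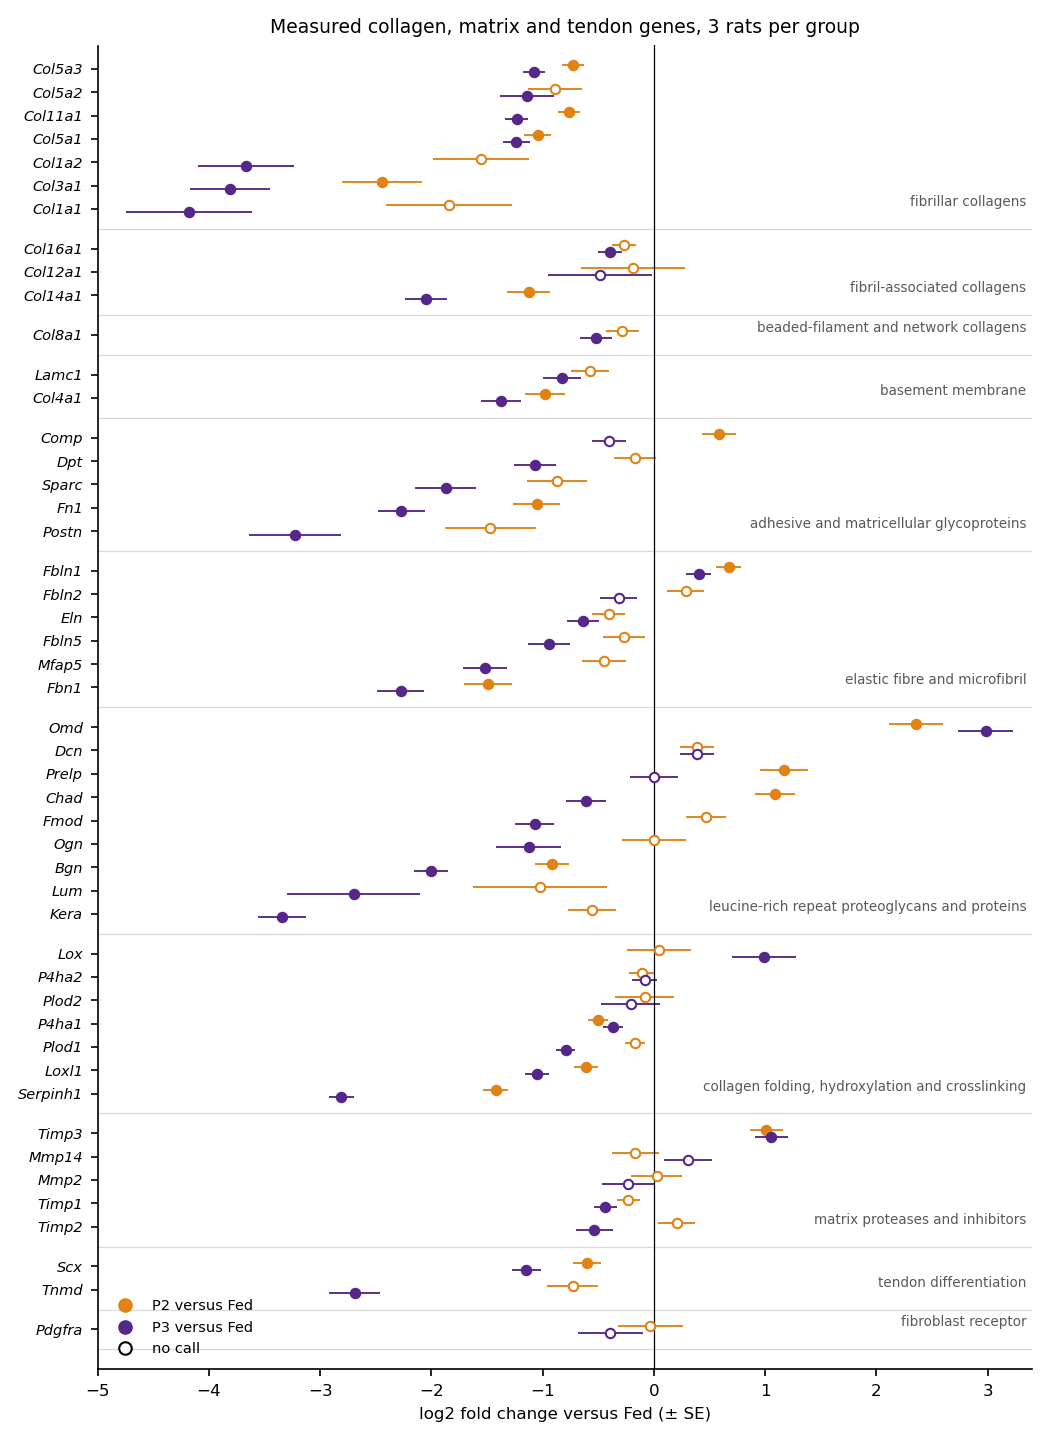
Log2 fold change versus Fed on the x axis for the 48 measured members, grouped by role on the y axis, with P2 in orange and P3 in purple, 3 rats per group; bars are the SE of the limma fit, filled points are calls and open points are not. The collagens lie left of 0, with Col1a1 at -4.18 in P3, and Omd lies at 2.98.

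The promoters of a few members that moved in opposite directions are shown so that their sequence can be read beside the values below. Of the 48 measured members, 34 have a promoter in the RefSeq table of build GRCr8, and Col1a1 and Col3a1 are not among them. The 250 bases before the annotated start are given 5′ to 3′ on the strand of the gene, for Col1a2 (chr4:33518307-33518556, + strand), which codes a chain of type I collagen, Serpinh1 (chr1:163062977-163063226, - strand), the collagen chaperone, Omd (chr17:15274871-15275120, - strand), a matrix proteoglycan, and Timp3 (chr7:19459559-19459808, - strand), a protease inhibitor. Capitals mark matches to the CCAAT box (CCAAT), the TATA box (TATAAA) and the GC box (GGGCGG), each searched on both strands.
Col1a2: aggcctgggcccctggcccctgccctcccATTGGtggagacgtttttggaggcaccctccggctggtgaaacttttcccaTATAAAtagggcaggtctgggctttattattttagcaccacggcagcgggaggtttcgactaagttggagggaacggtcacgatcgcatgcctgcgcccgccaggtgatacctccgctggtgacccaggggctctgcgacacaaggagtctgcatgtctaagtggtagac
Serpinh1: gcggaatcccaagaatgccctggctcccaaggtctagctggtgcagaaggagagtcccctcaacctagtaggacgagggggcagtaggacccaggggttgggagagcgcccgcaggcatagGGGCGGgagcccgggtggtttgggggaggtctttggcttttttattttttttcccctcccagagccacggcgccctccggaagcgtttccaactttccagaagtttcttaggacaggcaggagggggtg
Omd: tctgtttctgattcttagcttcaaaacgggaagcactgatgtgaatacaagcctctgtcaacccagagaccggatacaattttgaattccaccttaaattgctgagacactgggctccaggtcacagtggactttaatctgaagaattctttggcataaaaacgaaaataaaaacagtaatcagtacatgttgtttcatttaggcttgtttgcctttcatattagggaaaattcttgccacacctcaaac
Timp3: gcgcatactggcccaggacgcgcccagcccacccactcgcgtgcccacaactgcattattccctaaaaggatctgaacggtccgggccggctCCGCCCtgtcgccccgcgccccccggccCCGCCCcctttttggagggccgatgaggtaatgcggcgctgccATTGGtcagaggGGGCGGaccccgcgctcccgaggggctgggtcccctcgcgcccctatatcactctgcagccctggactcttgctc
Col1a2 holds a CCAAT box on the opposite strand and a TATAAA match, Serpinh1 holds 1 GC box, Timp3 holds 3 GC boxes and a CCAAT box on the opposite strand, and Omd holds none of these letters in this window. Over the 34 members with a promoter, CCAAT was found in 11 (32.4%), beside 34% of all 33469 promoters of this length, TATAAA in 5 (14.7%), beside 12.9%, and GGGCGG in 18 (52.9%), beside 30.5%. Each member gave 1 promoter, whereas every promoter entry was counted for the background, so the shares are not of like sets. These matches describe the sequences and were not tested as sites.

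Transcripts of fibrillar collagens, the rope-like collagens that give connective tissue its tensile strength, were lower in P3 than in fed rats for all 7 measured genes. Of the 7, 4 were also lower in P2, and 5 were lower in P3 than in P2. Over all probe sets the shares called lower, in that order of comparisons, were 13.4%, 4.15% and 7.52%. Col1a1, which codes the α1 chain of type I collagen, had log2 intensities of 12.47, 12.43 and 12.47 in the fed rats, 10.005, 11.69 and 10.16 in P2 and 9.56, 7.77 and 7.50 in P3. Every P3 rat was below every P2 rat and every P2 rat below every fed rat, and the spread was far wider in the fasted rats (SD 0.93 in P2 and 1.12 in P3) than in the fed rats (SD 0.03). Its log2 fold change in P3 was -4.18 ± 0.57 (adjusted p = 0.000487), which left 0.0553 of the fed level, and in P2 it was -1.84 ± 0.57 (adjusted p = 0.0848). Without P2 2, the highest of the P2 rats, the P2 value was -2.37 and passed the test (adjusted p = 0.0341), and it also passed without P3 1 (adjusted p = 0.0283) or with array weights (adjusted p = 0.0376).

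Col1a2, its α2 partner in the type I trimer, had values of 12.11, 11.96 and 12.01 in the fed rats, 9.88, 11.22 and 10.32 in P2 and 9.35, 7.90 and 7.83 in P3. The order of the rats within P2 was that of Col1a1, with P2 2 again the highest, and P3 1 was again the highest in P3. Col1a2 fell by 3.67 ± 0.43 in P3 (adjusted p = 0.000195), while the P2 value of -1.55 ± 0.43 (adjusted p = 0.0578) did not pass. It passed without P2 2 (adjusted p = 0.0316) or without P3 1 (adjusted p = 0.0171) and under 4 other settings, array weights, a filter on dim probe sets, centring of each array on its median and a fit of Fed and P2 alone (adjusted p between 0.0263 and 0.0456). For Col3a1, the type III collagen of thin, pliable fibrils, the log2 intensities were 10.76, 10.81 and 11.04 in the fed rats, 7.81, 9.20 and 8.26 in P2 and 7.68, 6.56 and 6.94 in P3. No fasted rat reached the fed range, and the P2 and P3 rats did not overlap, although P2 1 and P3 1 were close. Col3a1 fell in each phase, its log2 fold changes being -2.44 ± 0.36 (adjusted p = 0.00396) in P2 and -3.81 ± 0.36 (adjusted p = 5.33e-05) in P3.

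Col5a1, a chain of type V collagen that starts type I fibrils and limits their diameter, had log2 intensities of 7.74, 7.73 and 7.96 in the fed rats, 6.81, 6.89 and 6.61 in P2 and 6.69, 6.34 and 6.70 in P3. Both fasted groups were clear of the fed rats and overlapped each other. Its log2 fold changes were -1.04 ± 0.12 (adjusted p = 0.0013) in P2 and -1.24 ± 0.12 (adjusted p = 7.24e-05) in P3, and that of P3 versus P2 was -0.19 ± 0.12 (adjusted p = 0.405). Among the other minor fibrillar chains, Col5a2 had a log2 fold change of -1.14 ± 0.24 in P3 and -0.89 ± 0.24 in P2 (adjusted p = 0.0558), Col5a3 of -1.08 ± 0.10 and -0.73 ± 0.10, and Col11a1 of -1.23 ± 0.10 and -0.76 ± 0.10, again P3 first. All of these but the P2 value of Col5a2 were calls, and that value passed without P2 2 (adjusted p = 0.0359) or without P3 1 (adjusted p = 0.0426). It also passed with a second quantile normalization, centring on array medians, a filter on dim probe sets or array weights (adjusted p between 0.0294 and 0.039). All 7 genes lay lower in every fasted rat than in any fed rat. Of all probe sets, 10.9% lay wholly below the fed rats in P2 and 20.1% in P3.

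**Figure D2:**
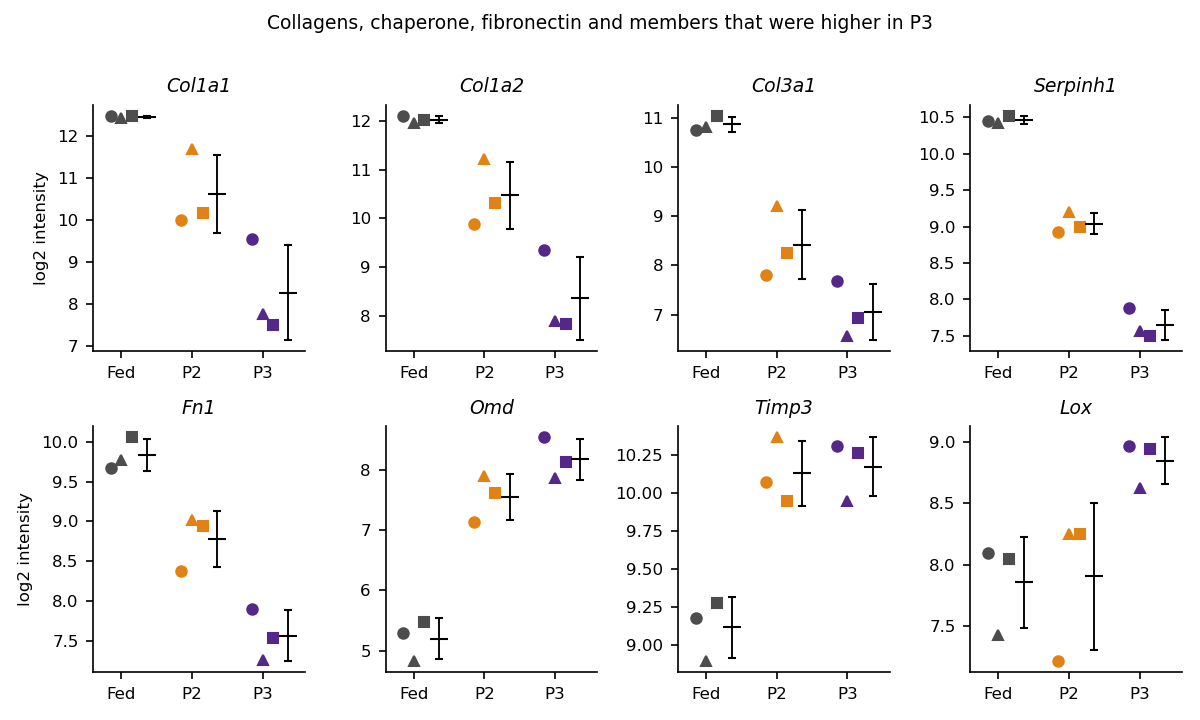
Log2 intensity (y axis, a separate scale for each gene) of 8 members on each array, with Fed, P2 and P3 on the x axis, circles, triangles and squares for replicates 1, 2 and 3, and lines with bars for the mean ± SD of 3 rats. Col1a1, Col1a2, Col3a1, Serpinh1 and Fn1 step down from Fed to P2 to P3 with no overlap, and Omd and Timp3 lie higher in all fasted rats.

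The fibril-associated collagens, which sit on the surface of fibrils and link them to their surroundings, moved less evenly. Col14a1, which is found in tendon and dense connective tissue, had log2 intensities of 8.36, 8.57 and 9.00 in the fed rats, 7.26, 7.70 and 7.60 in P2 and 6.85, 6.35 and 6.59 in P3. The 3 groups did not overlap, and the log2 fold changes were -1.13 ± 0.19 (adjusted p = 0.00774) in P2 and -2.05 ± 0.19 (adjusted p = 4.92e-05) in P3. Col16a1, another minor fibril-associated chain, had values of 6.57, 6.53 and 6.44 in the fed rats, 6.15, 6.30 and 6.28 in P2 and 6.17, 5.89 and 6.29 in P3. Its P3 log2 fold change was -0.39 ± 0.11 (adjusted p = 0.0205), a call that was lost without Fed 1 (adjusted p = 0.0662) or Fed 2 (adjusted p = 0.0635), and its P2 value was -0.27 ± 0.11 (adjusted p = 0.176). Col12a1, which binds type I fibrils in tendon and in the muscle sheath, had log2 intensities of 8.06, 7.74 and 7.94 in the fed rats, 7.10, 8.28 and 7.79 in P2 and 8.61, 6.70 and 6.97 in P3. P3 1 was the highest of the 9 arrays and P3 2 the lowest, and neither the P2 value (-0.19 ± 0.47, adjusted p = 0.872) nor the P3 value (-0.49 ± 0.47, adjusted p = 0.508) passed the test. Without P3 1 the P3 value was -1.08 and a call (adjusted p = 0.0329).

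Col8a1, a short network-forming collagen of vessel walls, had log2 intensities of 6.24, 6.37 and 6.03 in the fed rats, 5.88, 6.15 and 5.76 in P2 and 5.93, 5.47 and 5.69 in P3. It was lower in P3 by a call that rested on single arrays, with a log2 fold change of -0.52 ± 0.15 (adjusted p = 0.0266), and the adjusted p rose to between 0.0703 and 0.0994 without Fed 1, Fed 2, P3 2 or P3 3. Its values in P2 3, P3 2 and P3 3 lay under the median of all probe sets. In the basement membrane, Col4a1, which codes the α1 chain of its type IV collagen network, had values of 8.93, 8.88 and 8.99 in the fed rats, 7.70, 8.32 and 7.84 in P2 and 7.89, 7.33 and 7.45 in P3. All fasted rats were below all fed rats, whereas P2 and P3 overlapped, and the log2 fold changes were -0.98 ± 0.18 (adjusted p = 0.0108) in P2 and -1.38 ± 0.18 (adjusted p = 0.000387) in P3. Lamc1, the laminin γ1 chain present in most laminins, had log2 intensities of 9.88, 9.72 and 9.96 in the fed rats, 8.90, 9.51 and 9.42 in P2 and 9.24, 8.81 and 9.05 in P3. The fasted rats again lay below the fed rats, but only the P3 value passed the test (-0.82 ± 0.17, adjusted p = 0.00541), and the P2 value was -0.58 ± 0.17 (adjusted p = 0.0719). That P2 value passed with centring of each array on its median, a filter on dim probe sets or array weights (adjusted p between 0.0458 and 0.048).

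Among genes of collagen folding and crosslinking, the chaperone Serpinh1, the crosslinking enzyme Loxl1 and the hydroxylase P4ha1 were lower in both phases, Plod1 was lower in P3, Plod2 and P4ha2 had no call, and Lox was higher in P3. Serpinh1, which codes HSP47, a chaperone that binds folded procollagen in the endoplasmic reticulum, had log2 intensities of 10.45, 10.41 and 10.52 in the fed rats, 8.92, 9.19 and 9.00 in P2 and 7.88, 7.57 and 7.50 in P3. The groups did not overlap and were far apart beside their spread (SD 0.05 in Fed, 0.14 in P2 and 0.20 in P3). The log2 fold change of Serpinh1 was -1.42 ± 0.11 (adjusted p = 0.000224) in P2, which left 0.373 of the fed level, and -2.81 ± 0.11 (adjusted p = 4.95e-07) in P3, which left 0.143. Loxl1, a lysyl oxidase-like enzyme needed for elastic fibres, had values of 7.31, 7.07 and 7.43 in the fed rats, 6.66, 6.79 and 6.53 in P2 and 6.29, 6.15 and 6.22 in P3. These groups did not overlap either, and the log2 fold changes were -0.61 ± 0.11 (adjusted p = 0.00868) in P2 and -1.05 ± 0.11 (adjusted p = 8.33e-05) in P3.

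Lox itself, the lysyl oxidase that starts the crosslinking of collagen and elastin, had log2 intensities of 8.09, 7.43 and 8.05 in the fed rats, 7.22, 8.25 and 8.25 in P2 and 8.97, 8.62 and 8.94 in P3. The P3 rats were above all others, whereas Fed and P2 overlapped, with P2 1 the lowest rat. The P3 log2 fold change was 0.99 ± 0.29 (adjusted p = 0.0298), a call that was lost without Fed 2 (adjusted p = 0.111), Fed 3 (0.0525), P3 1 (0.0906) or P3 3 (0.0883). Against P2 the value was 0.94 ± 0.29 (adjusted p = 0.0593). It passed the test without P2 2 (adjusted p = 0.04999), after subtraction of the array medians (adjusted p = 0.0402) and among probe sets with a mean log2 of at least 5 (adjusted p = 0.0353). Plod1, which hydroxylates lysines of collagen, had log2 intensities of 8.12, 8.18 and 8.30 in the fed rats, 7.97, 8.16 and 7.97 in P2 and 7.51, 7.38 and 7.33 in P3. P3 stood clear of the other groups, which overlapped, and the log2 fold changes were -0.17 ± 0.09 (adjusted p = 0.305) in P2 and -0.79 ± 0.09 (adjusted p = 0.000127) in P3.

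P4ha1, the catalytic subunit of prolyl 4-hydroxylase, was lower in each phase, with -0.50 ± 0.09 (adjusted p = 0.0102) in P2 and -0.36 ± 0.09 (adjusted p = 0.0147) in P3. Its P3 call was lost without Fed 2, Fed 3 or P3 1 (adjusted p between 0.0541 and 0.0563). For P4ha2, the other catalytic subunit, the log2 fold changes were -0.11 ± 0.11 and -0.08 ± 0.11, and for Plod2, the lysyl hydroxylase of collagen telopeptides, -0.08 ± 0.26 and -0.21 ± 0.26. None of these values of P4ha2 and Plod2 passed the test, and the standard error of Plod2 was larger than that of P4ha2.

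Of the 5 measured adhesive and matricellular glycoproteins, which bind cells and collagen fibrils, 4 were lower in P3 than in fed rats, beside 13.4% of all probe sets. All 5 were lower in P3 than in P2, beside 7.52%. Postn, periostin, which binds collagen I and fibronectin in tissues under load, had log2 intensities of 8.99, 8.45 and 9.45 in the fed rats, 7.39, 7.91 and 7.18 in P2 and 6.71, 5.32 and 5.18 in P3. It stepped down from group to group without overlap, and P3 1 was well above the other P3 rats. The log2 fold change was -3.23 ± 0.41 (adjusted p = 0.000328) in P3, where 2 of the 3 rats lay under the median of all probe sets, and -1.47 ± 0.41 (adjusted p = 0.0603) in P2, where the call appeared without P3 1 (adjusted p = 0.0156). That call also appeared with a second quantile normalization, centring of each array on its median or a filter on dim probe sets. Array weights and a fit of Fed and P2 alone gave it too (adjusted p between 0.0311 and 0.0476 over these settings). Fn1, fibronectin, which links integrins to the matrix, had values of 9.67, 9.77 and 10.06 in the fed rats, 8.38, 9.02 and 8.94 in P2 and 7.90, 7.26 and 7.53 in P3. It was lower in each phase, its log2 fold changes being -1.05 ± 0.21 (adjusted p = 0.0151) in P2 and -2.27 ± 0.21 (adjusted p = 4.37e-05) in P3, and the P2 call was lost without Fed 3 (adjusted p = 0.0607).

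Sparc, osteonectin, a collagen-binding protein of the matrix, had log2 intensities of 12.14, 12.12 and 12.25 in the fed rats, 10.94, 11.92 and 11.05 in P2 and 10.80, 10.01 and 10.09 in P3. P2 2 lay close to the fed rats and apart from the other P2 rats. Sparc fell in P3 (-1.87 ± 0.27, adjusted p = 0.000773), and its P2 value was -0.87 ± 0.27 (adjusted p = 0.0905), which passed without P2 2 (adjusted p = 0.0163) or with array weights (adjusted p = 0.0343). Dpt, dermatopontin, which binds decorin and speeds fibril formation, had values of 9.75, 9.45 and 9.38 in the fed rats, 9.17, 9.67 and 9.22 in P2 and 8.78, 8.14 and 8.46 in P3. Here P2 overlapped Fed and the P3 rats lay below both, and the log2 fold changes were -0.17 ± 0.19 (adjusted p = 0.672) in P2 and -1.07 ± 0.19 (adjusted p = 0.00236) in P3. Comp, a pentameric glycoprotein of cartilage and tendon, behaved in another way, with log2 intensities of 7.01, 7.01 and 7.01 in the fed rats, 7.20, 7.68 and 7.92 in P2 and 6.54, 6.63 and 6.66 in P3. The 3 fed arrays hold 1 identical value in the deposited table, so the spread of this gene comes from the fasted rats. P2 was above and P3 below the fed value. The log2 fold changes were 0.59 ± 0.15 (adjusted p = 0.0478) in P2, -0.40 ± 0.15 (adjusted p = 0.0848) in P3 and -0.99 ± 0.15 (adjusted p = 0.00229) in P3 versus P2. The P2 call was lost in 8 of the 9 fits that left out 1 array (all but that without P2 1), with adjusted p up to 0.132, and the P3 value passed without P2 1 (adjusted p = 0.00481) or P2 3 (adjusted p = 0.0372). It also passed with array weights (adjusted p = 0.0375) and in a fit of Fed and P3 alone (adjusted p = 0.00295).

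In the elastic fibre group, microfibril genes fell and Fbln1 rose. Fbn1, fibrillin-1, the backbone of microfibrils that also hold latent TGF-β, had log2 intensities of 9.70, 9.59 and 10.01 in the fed rats, 7.84, 8.51 and 8.46 in P2 and 7.77, 7.16 and 7.53 in P3. It fell with no overlap of the groups, although P2 1 and P3 1 nearly met, the log2 fold change being -1.49 ± 0.21 (adjusted p = 0.00331) for P2 and -2.28 ± 0.21 (adjusted p = 4.91e-05) for P3. Mfap5, a microfibril-associated glycoprotein, had values of 7.90, 7.77 and 8.43 in the fed rats, 7.39, 7.92 and 7.44 in P2 and 6.71, 6.39 and 6.44 in P3. P2 overlapped Fed, whereas P3 lay below both, and the log2 fold changes were -0.45 ± 0.20 (adjusted p = 0.227) in P2 and -1.52 ± 0.20 (adjusted p = 0.000374) in P3.

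Fbln5, which helps elastin to assemble on microfibrils, had log2 intensities of 8.19, 8.42 and 8.69 in the fed rats, 7.83, 8.46 and 8.21 in P2 and 7.73, 7.28 and 7.46 in P3. Its log2 fold change was -0.94 ± 0.19 (adjusted p = 0.00436) in P3 and -0.27 ± 0.19 (adjusted p = 0.469) in P2. Eln, which codes elastin, had values of 8.56, 8.22 and 8.25 in the fed rats, 7.85, 8.16 and 7.81 in P2 and 7.89, 7.46 and 7.78 in P3, and was lower in P3 (-0.64 ± 0.15, adjusted p = 0.00989) with a P2 value of -0.41 ± 0.15 (adjusted p = 0.14). Fbln1, a fibulin of basement membranes and elastic fibres, had log2 intensities of 6.59, 6.43 and 6.79 in the fed rats, 7.09, 7.34 and 7.40 in P2 and 6.97, 6.97 and 7.08 in P3. All fasted rats were above all fed rats, and the P2 rats above the P3 rats. The log2 fold changes were 0.68 ± 0.11 (adjusted p = 0.00702) in P2 and 0.40 ± 0.11 (adjusted p = 0.0245) in P3. The P3 call was lost without Fed 1, Fed 2, P3 1, P3 2 or P3 3 (adjusted p between 0.0527 and 0.0886). Fbln2, a related fibulin, had no call against fed rats, with values of 0.29 ± 0.17 in P2 and -0.32 ± 0.17 in P3, and the direct comparison of the phases gave a lower level in P3 (-0.61 ± 0.17, adjusted p = 0.0372), a call lost without any one of 6 arrays (Fed 2, P2 1, P2 2, P2 3, P3 1 or P3 2, adjusted p up to 0.103).

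The small leucine-rich repeat proteoglycans and their relatives moved in both directions. Of the 9, 3 were higher and 1 lower in P2 versus Fed, 1 higher and 6 lower in P3 versus Fed, and 6 lower in P3 than in P2. Over all probe sets the shares, in that order, were 5.13%, 4.15%, 15.8%, 13.4% and 7.52%. Omd, osteomodulin or osteoadherin, known from bone, had log2 intensities of 5.30, 4.82 and 5.47 in the fed rats, 7.14, 7.90 and 7.62 in P2 and 8.54, 7.87 and 8.13 in P3. The fed rats were below the median of all probe sets on their arrays, and every fasted rat was above every fed rat. The deposited values come with no background call, so for genes under that median in a group it is not known whether the level lies above background, and a fold change against it may understate the ratio. Its log2 fold changes were 2.36 ± 0.24 (adjusted p = 0.000722) in P2 and 2.98 ± 0.24 (adjusted p = 2.21e-05) in P3, and P3 versus P2 gave 0.62 ± 0.24 (adjusted p = 0.14). Kera, keratocan, a keratan sulphate proteoglycan known from the cornea and found in tendon, had values of 9.02, 8.51 and 8.16 in the fed rats, 7.67, 8.14 and 8.23 in P2 and 5.15, 5.34 and 5.19 in P3. P2 overlapped Fed, while the 3 P3 rats were far below and close together (SD 0.10), also under the median of all probe sets. Kera fell by 3.34 ± 0.22 in P3 (adjusted p = 6e-06), with a P2 value of -0.56 ± 0.22 (adjusted p = 0.168).

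Lum, lumican, which limits fibril growth, had log2 intensities of 9.00, 8.49 and 8.91 in the fed rats, 6.88, 8.57 and 7.88 in P2 and 7.53, 5.17 and 5.61 in P3. The spread was wide in P2 (SD 0.85) and in P3 (SD 1.26), with P2 2 and P3 1 at the top of their groups. P3 2 and P3 3 lay under the median of all probe sets, so the P3 fold change may understate the ratio. The P3 log2 fold change was -2.70 ± 0.60 (adjusted p = 0.00811), the P2 value was -1.02 ± 0.60 (adjusted p = 0.378), and P3 versus P2 gave -1.68 ± 0.60 (adjusted p = 0.106), which without P3 1 was -2.39 (adjusted p = 0.00895) and with array weights -1.89 (adjusted p = 0.0288). Bgn, biglycan, had values of 8.16, 8.29 and 8.24 in the fed rats, 7.29, 7.46 and 7.20 in P2 and 6.60, 5.99 and 6.08 in P3. It fell in each step with no overlap, the log2 fold change being -0.91 ± 0.15 (adjusted p = 0.00679) between Fed and P2 and -1.09 ± 0.15 (adjusted p = 0.00121) between P2 and P3. Dcn, decorin, its close relative, had no call, and its log2 fold changes were 0.39 ± 0.15 (adjusted p = 0.167) in P2 and 0.39 ± 0.15 (adjusted p = 0.0924) in P3, the latter a call without P3 2 (adjusted p = 0.0395) or with array weights (adjusted p = 0.0296).

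Prelp, which anchors basement membranes to the connective tissue, had log2 intensities of 8.45, 8.81 and 9.21 in the fed rats, 9.68, 10.29 and 10.01 in P2 and 9.07, 8.59 and 8.80 in P3. The P2 rats were above all others, and Fed and P3 overlapped. Its log2 fold change was 1.17 ± 0.22 (adjusted p = 0.0109) in P2, -0.0016 ± 0.22 in P3 versus Fed and -1.17 ± 0.22 (adjusted p = 0.00555) in P3 versus P2. Chad, chondroadherin, a cartilage and tendon protein that binds collagen and integrins, had values of 8.53, 8.19 and 8.50 in the fed rats, 9.12, 9.87 and 9.51 in P2 and 7.79, 7.69 and 7.91 in P3. The groups were ordered P2, Fed, P3 with no overlap. The log2 fold changes were 1.09 ± 0.18 (adjusted p = 0.00624) in P2, -0.61 ± 0.18 (adjusted p = 0.0294) in P3 and -1.70 ± 0.18 (adjusted p = 0.000254) in P3 versus P2. Its P3 call against Fed was lost without Fed 1, Fed 3, P3 1, P3 2 or P3 3 (adjusted p between 0.0504 and 0.0943), while the P2 call and that of P3 versus P2 were kept whichever array was left out.

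Fmod, fibromodulin, which guides collagen crosslinking in tendon, had log2 intensities of 8.50, 8.19 and 8.16 in the fed rats, 8.33, 8.89 and 9.03 in P2 and 7.35, 7.09 and 7.20 in P3. Like Chad it was lowest in P3, with log2 fold changes of -1.07 ± 0.18 (adjusted p = 0.00158) versus Fed and -1.54 ± 0.18 (adjusted p = 0.000431) versus P2, and its P2 value of 0.47 ± 0.18 (adjusted p = 0.157) was a call without P2 1 (adjusted p = 0.014) or with array weights (adjusted p = 0.0183). Ogn, osteoglycin or mimecan, had a log2 fold change of 0.0004 ± 0.29 in P2 and of -1.13 ± 0.29 (adjusted p = 0.0172) in P3, a call that was lost without Fed 3 (adjusted p = 0.0688) or P3 2 (adjusted p = 0.0646). Several of these genes are neighbours in the RefSeq table of GRCr8, with 0 coding genes listed between them: Ogn and Omd on chromosome 17, Prelp and Fmod on chromosome 13, and Dcn, Lum and Kera in that order on chromosome 7. Next to each other, Omd was higher and Ogn lower in P3, Fmod was lower while Prelp had no call, and Kera and Lum were lower while Dcn had no call. The remaining pair of neighbours among the members, Col3a1 and Col5a2 on chromosome 9, was lower in P3 for both.

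**Figure D3:**
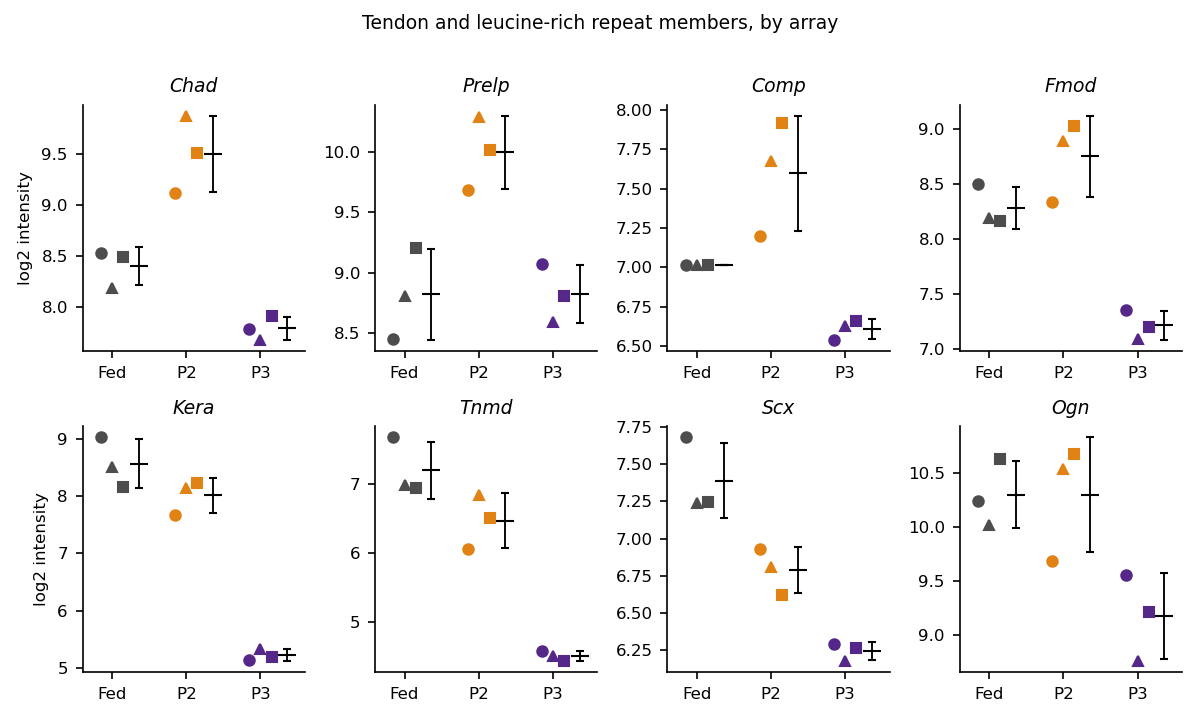
Log2 intensity (y axis, a separate scale for each gene) of tendon and leucine-rich repeat members on each array, with Fed, P2 and P3 on the x axis, circles, triangles and squares for replicates 1, 2 and 3, and lines with bars for the mean ± SD of 3 rats. Chad and Prelp peak in P2, where their log2 fold changes were 1.09 and 1.17, and Kera and Tnmd drop in P3.

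Tendon differentiation was represented by a transcription factor and its target. Tnmd, tenomodulin, a membrane protein typical of tendon cells, had log2 intensities of 7.67, 6.99 and 6.93 in the fed rats, 6.05, 6.84 and 6.51 in P2 and 4.57, 4.51 and 4.43 in P3. The P3 rats lay close together (SD 0.07) and below all others, and under the median of all probe sets, so the P3 fold change may likewise understate the ratio. The log2 fold change was -2.69 ± 0.23 (adjusted p = 2.9e-05) in P3, and -0.73 ± 0.23 (adjusted p = 0.0921) in P2, and P3 versus P2 gave -1.96 ± 0.23 (adjusted p = 0.000487). Scx, scleraxis, the transcription factor that marks tendon progenitors and drives Tnmd, had values of 7.68, 7.24 and 7.25 in the fed rats, 6.93, 6.81 and 6.62 in P2 and 6.29, 6.18 and 6.26 in P3. It stepped down without overlap, and the log2 fold changes were -0.60 ± 0.13 (adjusted p = 0.0222) in P2 and -1.15 ± 0.13 (adjusted p = 0.000162) in P3. The P2 call of Scx was lost without P2 2 (adjusted p = 0.0561) or P2 3 (adjusted p = 0.0819). How much tendon was taken with each muscle is not given in the sources used here, and its part in these values was not tested. Among the members described here as known from tendon, Comp and Chad were higher in P2 versus Fed. Fmod, Kera, Tnmd and Col12a1 had no call there, and Scx and Col14a1 were lower. In P3 versus P2 each of these was lower, beside 7.52% of all probe sets, except Col12a1, which had no call.

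Of the 5 measured members that code matrix proteases or their inhibitors, Timp3 was higher in both phases. Timp1 and Timp2 were lower in P3 versus Fed, and Mmp2 and Mmp14 had no call. Timp3, a matrix-bound inhibitor of metalloproteases, had log2 intensities of 9.18, 8.89 and 9.27 in the fed rats, 10.07, 10.36 and 9.95 in P2 and 10.31, 9.95 and 10.26 in P3. All fasted rats were above all fed rats, and P2 and P3 overlapped. The log2 fold changes were 1.01 ± 0.15 (adjusted p = 0.00365) in P2 and 1.06 ± 0.15 (adjusted p = 0.000574) in P3, 2.08 times the fed level, and both calls were kept whichever array was left out. Timp2, which inhibits Mmp2 and takes part in its activation, had values of 9.39, 9.32 and 9.68 in the fed rats, 9.56, 9.84 and 9.61 in P2 and 9.20, 8.58 and 9.00 in P3. It was lower in P3 than in P2 by 0.74 ± 0.16 (adjusted p = 0.0146). Against Fed its P3 value was -0.53 ± 0.16 (adjusted p = 0.038), and this call was lost without any one of Fed 1, Fed 2, Fed 3, P2 3, P3 2 and P3 3 (adjusted p between 0.0528 and 0.132). Timp1, a secreted inhibitor, had log2 intensities of 6.63, 6.40 and 6.79 in the fed rats, 6.34, 6.42 and 6.36 in P2 and 6.28, 6.17 and 6.06 in P3, with log2 fold changes of -0.23 ± 0.10 (adjusted p = 0.239) in P2 and -0.44 ± 0.10 (adjusted p = 0.0113) in P3.

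Mmp14, the membrane metalloprotease that cleaves fibrillar collagen and activates Mmp2, had values of 8.07, 8.10 and 8.31 in the fed rats, 7.73, 8.14 and 8.12 in P2 and 8.98, 8.09 and 8.34 in P3. P3 1 was the highest of the 9 arrays and the others overlapped, and the P3 log2 fold change of 0.31 ± 0.21 (adjusted p = 0.338) did not pass the test, nor did the P2 value (-0.16 ± 0.21, adjusted p = 0.726). For Mmp2, gelatinase A, the log2 fold changes were 0.03 ± 0.23 (adjusted p = 0.969) in P2 and -0.23 ± 0.23 (adjusted p = 0.517) in P3. Pdgfra, the receptor that marks fibroblasts and fibro-adipogenic cells in muscle, had log2 intensities of 7.71, 7.82 and 8.24 in the fed rats, 7.34, 8.31 and 8.01 in P2 and 7.92, 7.01 and 7.66 in P3. The groups overlapped throughout, and the log2 fold changes were -0.03 ± 0.29 (adjusted p = 0.968) in P2 and -0.39 ± 0.29 (adjusted p = 0.377) in P3.

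Set directly against P2, P3 had 27 members lower, beside 7.52% of all probe sets. Of these, 10 were lower in all 3 comparisons (Col3a1, Col5a3, Col11a1, Col14a1, Fn1, Fbn1, Bgn, Loxl1, Serpinh1 and Scx), a joint pattern not counted over all probe sets. Kera, whose P3 level was under the median of all probe sets, had the fitted log2 fold change farthest from 0, -2.78 ± 0.22 (adjusted p = 5.35e-05), followed by Col1a1 (-2.34 ± 0.57, adjusted p = 0.0216) and Col1a2 (-2.11 ± 0.43, adjusted p = 0.0091). The calls kept whichever array was left out numbered 16 of 27 here, 30 of 38 in P3 versus Fed and 16 of 19 in P2 versus Fed. Without P2 2 or without P3 2 the count of members lower in P3 than in P2 was 16. The calls lost in some fit were those of Col1a1, Col3a1, Col5a3, Sparc, Postn, Fbn1, Fbln2, Fbln5, Ogn, Loxl1 and Scx, whose adjusted p reached at most 0.135. For Col1a1 it was 0.0553 without P2 2, 0.0822 without P3 2 and 0.0829 without P3 3. For Col3a1, Col5a3, Sparc, Fbn1, Fbln2 and Fbln5 the calls were also lost without some of the fed arrays. These enter the comparison through the shared estimate of the spread.

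**Figure D4:**
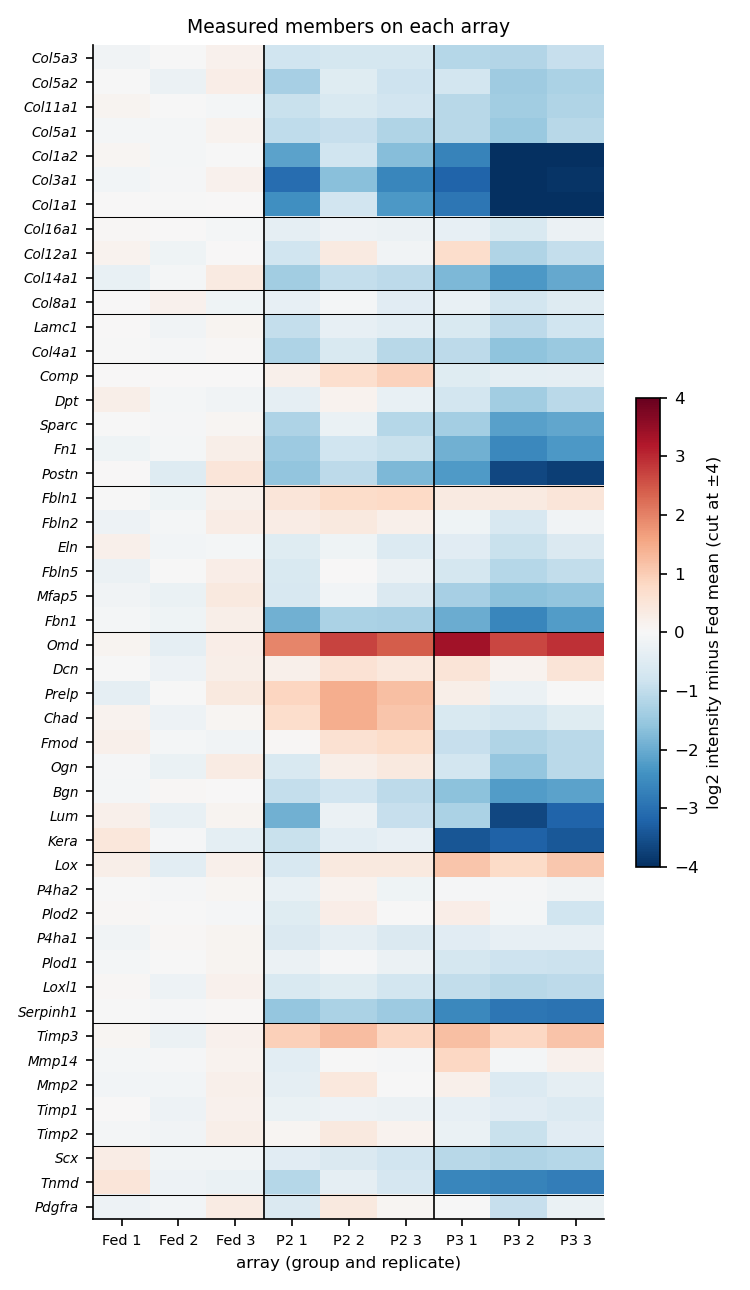
Difference of each log2 intensity from the mean of the fed rats for the 48 measured members (rows, in the order of the roles) on the 9 arrays (columns), with blue for lower, red for higher and the scale cut at 4 in either direction. Blue deepens from P2 to P3 for most rows, and P2 2 and P3 1 are paler than the other arrays of their groups.

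The members varied together between rats of the same group. Among the P2 rats, P2 2 had the highest value in 42 of 48 members, beside 32.7% of all probe sets, and P2 1 the lowest in 39, beside 37.8%. Among the P3 rats, P3 1 was highest in 39, beside 37.5%, and P3 2 lowest in 35, beside 35% of all probe sets. Fed 3 was highest among fed rats in 31 members, beside 36.4%. The median difference of the members from the fed mean was -0.61, -0.19 and -0.39 on the log2 scale in P2 1, P2 2 and P2 3, and -0.72, -1.17 and -0.96 in P3 1, P3 2 and P3 3, so the P2 and P3 rats did not overlap in it. The medians over all probe sets lay between 5.801 and 5.899 on the 9 arrays, which the quantile normalization sets nearly equal.

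Markers of other cells moved along with these values in part. Over all probe sets, 13.4% were lower and 15.8% higher in P3 versus Fed, and 4.15% lower and 5.13% higher in P2 versus Fed. Counts of called markers stand beside these shares. The summed intensity of 10 endothelial markers was also highest in P2 2 (5292) among P2 rats, whose others had 3390 and 4157, and in P3 1 (5617) among P3 rats, whose others had 3600 and 4601, beside 3667 to 3879 in fed rats. Of the 10, 1 was higher and 0 lower in P3 versus Fed, and the same counts held in P2. Fibroblast markers that are not members gave sums of 1419 to 1587 in fed, 1486 to 1571 in P2 and 1178 to 1237 in P3 rats over 9 genes. In P3 versus Fed, 5 of these 9 were lower, with Thy1, a surface glycoprotein of fibroblasts, at -1.08 ± 0.17 (adjusted p = 0.00126) and Prrx1, a mesenchymal transcription factor, at -0.29 ± 0.09 (adjusted p = 0.038), and in P2 1 was lower (Osr1) and 1 higher (Cygb). Mural cell markers summed to 7802 to 8978 in fed, 6255 to 8213 in P2 and 4391 to 5821 in P3 rats, with 5 of 8 lower in P3. Adipocyte markers summed to 1055 to 1131 in fed rats, 1761 to 1969 in P2 and 758.4 to 980.6 in P3, with 3 of 7 higher in P2. The defining markers of cartilage and bone cells had a mean log2 of 4.97 to 5.51 over 6 genes on every array, and 1 of the 6, Col2a1, was lower in P2 and in P3. Their summed intensity was also highest in P2 2 among P2 rats (256.5, beside 240 and 209.8) and in P3 1 among P3 rats (325.8, beside 213.5 and 220.5). In fed rats it was 241.8 to 249.7. Macrophage and satellite cell markers gave 2 calls each in P3 versus Fed, 1 higher and 1 lower for macrophages and 0 higher and 2 lower for satellite cells, while lymphocyte and Schwann cell markers gave 0 and 1. The part of these cells in the members' values was not tested.

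Other genes of the same pathways were taken from lists by role. Enzymes and helpers of collagen processing showed the decrease seen in Serpinh1 for some of the 20 measured. Of these, 3 (15%) were lower in P2, beside 4.15% of all probe sets, and 9 (45%) in P3, beside 13.4%. In either phase 0 were higher, beside 5.13% in P2 and 15.8% in P3. Pcolce, which speeds the cleavage of the procollagen C-propeptide, had log2 fold changes of -1.14 ± 0.17 (adjusted p = 0.0043) in P2 and -2.30 ± 0.17 (adjusted p = 1.32e-05) in P3. Loxl2, a lysyl oxidase-like enzyme that acts on type IV collagen, had -1.42 ± 0.16 (adjusted p = 0.000941) and -2.11 ± 0.16 (adjusted p = 1.24e-05). Its P3 values lay under the median of all probe sets. Bmp1, the C-proteinase itself, was lower in P3 (-1.04 ± 0.17, adjusted p = 0.00153), and so was Fkbp10, a collagen chaperone of the endoplasmic reticulum (-0.77 ± 0.09, adjusted p = 0.000255). The median of the list was -0.05 in P2 and -0.26 in P3. Of 12 other measured collagens, 3 (25%) were lower in P3, beside 13.4% of all probe sets. They were Col11a2 (-0.47 ± 0.08, adjusted p = 0.00161), Col2a1 (-0.39 ± 0.08, adjusted p = 0.00585) and Col9a2 (-0.23 ± 0.07, adjusted p = 0.0436), all collagens of cartilage, and the list's median was -0.13.

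Of 9 other basement membrane genes, 4 (44.4%) were lower in each phase, beside 4.15% of all probe sets in P2 and 13.4% in P3. Their median was -0.32 in P3. Smoc2, a calcium-binding matricellular protein, had log2 fold changes of -0.78 ± 0.19 (adjusted p = 0.0372) in P2 and -1.93 ± 0.19 (adjusted p = 7.5e-05) in P3. For Lama3, a laminin α chain of epithelial basement membranes, they were -1.36 ± 0.08 (adjusted p = 7.35e-05) and -1.44 ± 0.08 (adjusted p = 1.97e-06), and for Nid2, which links laminin to collagen IV, -0.68 ± 0.15 (adjusted p = 0.0259) and -1.40 ± 0.15 (adjusted p = 0.000126). Lamb3, the β chain that pairs with Lama3, was lower too, with -0.61 ± 0.14 (adjusted p = 0.0298) in P2 and -0.63 ± 0.14 (adjusted p = 0.00917) in P3. Of 12 other proteoglycans and tendon genes, 4 (33.3%) were lower and 1 (8.33%) higher in P3, beside 13.4% and 15.8% of all probe sets. The lower ones included Cilp, a matrix protein that binds TGF-β (-1.70 ± 0.15, adjusted p = 3.09e-05), Fndc1 (-1.69 ± 0.25, adjusted p = 0.000745) and Vcan, versican, a large hyaluronan-binding proteoglycan (-1.35 ± 0.16, adjusted p = 0.000204), and the higher one was Prg4, lubricin (0.66 ± 0.13, adjusted p = 0.00452).

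Of 18 matrix receptors, 3 were higher in P3, a share near the 15.8% of all probe sets, and 7 were lower, beside 13.4%. Sdc4, a syndecan of focal adhesions, was higher by 1.64 ± 0.24 (adjusted p = 0.000853), Sdc2, another syndecan, by 1.60 ± 0.15 (adjusted p = 5.54e-05) and Ddr1, a tyrosine kinase receptor for collagen, by 1.12 ± 0.08 (adjusted p = 1.21e-05). Itga6, a laminin receptor subunit, was lower (-0.85 ± 0.27, adjusted p = 0.0411). Among 21 other proteases and inhibitors, 1 was higher (4.76%) and 5 lower (23.8%) in P3, beside 15.8% and 13.4% of all probe sets. Mmp13, a collagenase, had no call. It stood at 7.89 in P2 2 and 8.80 in P3 1, and between 3.70 and 4.00 on the other arrays. Mmp15, another metalloprotease, was lower in P2 versus Fed (-0.72 ± 0.11, adjusted p = 0.00406) and higher in P3 than in P2 (1.00 ± 0.11, adjusted p = 0.00029). Adamts1, a protease that cleaves versican, rose in each phase, with 0.70 ± 0.09 (adjusted p = 0.00184) in P2 and 2.07 ± 0.09 (adjusted p = 6.74e-07) in P3. Serpine2, an inhibitor of serine proteases, was lower in both phases (-0.97 ± 0.13, adjusted p = 0.00278, and -1.30 ± 0.13, adjusted p = 8.86e-05), and Fap, a protease of activated fibroblasts, and Adamts9, another versican-cleaving enzyme, were lower in P3 (-1.13 ± 0.23, adjusted p = 0.00489, and -0.78 ± 0.19, adjusted p = 0.0115).

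Of 18 genes of TGF-β and other matrix-inducing signals, 4 were higher and 7 lower in P3, beside 15.8% and 13.4% of all probe sets, and 3 were higher and 5 lower in P2, beside 5.13% and 4.15%. Pdgfc, a growth factor for mesenchymal cells, fell in each phase, with -0.60 ± 0.11 (adjusted p = 0.00994) in P2 and -1.88 ± 0.11 (adjusted p = 3.04e-06) in P3. Tgfb3, a TGF-β ligand, was lower in P3 (-1.58 ± 0.15, adjusted p = 4.37e-05). Tgfbr1, the type I signalling receptor, was higher, with 0.59 ± 0.12 (adjusted p = 0.0148) in P2 and 1.30 ± 0.12 (adjusted p = 3.82e-05) in P3, and so was Tgfbr3, the co-receptor betaglycan, with 1.25 ± 0.14 (adjusted p = 0.00102) and 1.63 ± 0.14 (adjusted p = 2.93e-05). Tgfbr2, the type II receptor, had no probe set that names it alone and was not analysed here.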

How the data were processed

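RNA of 9 tibialis anterior muscles, 3 per group (Fed, P2, P3) as the sample labels give them, was hybridised to 1 array each. The authors summarized the probes with RMA in Affymetrix Expression Console 1.1, with background correction and a quantile normalization. The deposited values are thus normalized log2 intensities, and nothing was done to them before the test. Of the 29215 probe sets, 15310 carry 1 symbol in the platform annotation, 323 several and 13582 none, and 15279 of the first were found among current RefSeq rat genes. A gene was measured here by the probe set that names it alone, and by the brightest of these on average.

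The model, fitted by limma 3.58.1 in R 4.3.3, had 1 mean per group over the 9 arrays (lmFit, eBayes with defaults, 2.87 prior degrees of freedom), and the Benjamini-Hochberg adjustment ran over the whole table. The code was tested on simulated data. The members, the lists of other genes and the rules were chosen with earlier results of these data known. Values on every array were given, in each role, for up to 4 members with the largest absolute change in P3 versus Fed and up to 2 in P2 versus Fed, calls first, and for every member called higher. Fmod, Mmp13 and Mmp15 were added after their values were seen. From each pathway list, up to 4 genes with the largest change among P3 calls were named. Markers of other cells were taken from short lists. Promoters come from RefSeq (GRCr8). Figures used Python 3.11.15 and matplotlib 3.10.9. Alternatives were a second quantile normalization, centring of each array on its median, a filter on a mean log2 of 5, robust moderation with an intensity trend, array weights, fits of 2 groups at a time, a replicate block, an adjusted p under 0.01, the analysis of variance and Tukey test of the study's methods at p under 0.001 or with adjustment, and leaving out each array. Averaging a gene's probe sets was not run, since each measured member has 1. The number of arrays limits the precision. The p-values set each group difference against the spread between these rats, pooled over the 3 groups and moderated over all probe sets. Arrays with the same replicate number did not deviate together (correlations of deviations from the group means from -0.243 to 0.123), so the numbers were not taken as pairs.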

Additional observations from a re-analysis of the deposited data

How the results depend on the processing

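None of the 84 calls of members changed direction under any alternative run. With the analysis of variance and Tukey test of the study's methods at p under 0.001, the members higher and lower numbered 1 and 14 for P3 versus Fed, 1 and 4 for P2 versus Fed, and the members lower in P3 than in P2 numbered 6. With an adjusted p under 0.01, 2 members were higher in P3 versus Fed and 12 lower in P3 than in P2. The first of these changed the test as well as the threshold. The analysis of variance with an adjusted p under 0.05 and a Tukey test at 0.05 ended 17 of the 84 calls, 12 in P3 versus Fed (34 lower became 23) and 5 in P3 versus P2 (27 lower became 22), those of Sparc, Fbln2, Fbln5, Ogn and Timp2. Fits of only the 2 groups compared ended 11 calls, those of Comp and Scx in P2 versus Fed, Timp2 in P3 versus Fed and Col1a1, Col3a1, Col5a3, Sparc, Fbn1, Fbln2, Fbln5 and Ogn in P3 versus P2 (27 lower became 19, adjusted p from 0.0515 to 0.113), and added those of Col1a2 and Postn in P2 and of Comp in P3. One member, Lox, was higher in P3 than in P2 (count 1, beside 0) after subtraction of the array medians and among probe sets with a mean log2 of at least 5. With each array left out in turn, the count of members higher in P3 versus Fed ran from 2 to 4, with 2 without Fed 2, P3 1 or P3 3, that of members higher in P3 than in P2 from 0 to 1, and that of members lower in P3 than in P2 from 16 to 26. Under the replicate block, 9 of the 84 calls were lost, those of Comp in P2 versus Fed (adjusted p = 0.0548), of Chad and Timp2 in P3 versus Fed (0.0563 and 0.062) and of Col3a1, Sparc, Fbn1, Fbln2, Fbln5 and Loxl1 in P3 versus P2 (0.0535 to 0.0765), and the members lower in P3 than in P2 numbered 21. Of the 9 arrays, 3 correlated best with an array of their own number. Only values that had passed no test changed sign. They were Ogn in P2 versus Fed at -0.0097 and Lox at -0.0025 after another quantile normalization, where Timp3 in P3 versus P2 was -0.054, Ogn in P2 versus Fed at -0.016, Prelp in P3 versus Fed at 0.021 and Dcn in P3 versus P2 at 0.033 after subtraction of the array medians, and Pdgfra in P2 versus Fed at 0.11 and Prelp in P3 versus Fed at 0.033 with array weights. With each array left out, the range in P2 versus Fed was -0.47 to 0.12 for Col12a1, -0.19 to 0.31 for Ogn, -0.17 to 0.39 for Lox, -0.25 to 0.12 for Plod2, -0.18 to 0.21 for Mmp2 and -0.24 to 0.24 for Pdgfra. In P3 versus Fed it was -0.19 to 0.19 for Prelp and -0.44 to 0.090 for Plod2, and in P3 versus P2 -0.89 to 0.067 for Col12a1, -0.11 to 0.12 for Dcn, -0.36 to 0.17 for Plod2, -0.067 to 0.16 for P4ha2 and -0.045 to 0.16 for Timp3. The cause of these changes of sign was not tested.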
